A study of Mus musculus with 4 samples.

Results

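The BCL2 family decides at the mitochondrion whether a cell lives or dies, and 10 of its genes were followed in microglia from demyelinating mouse brain. The genes were taken by symbol: the survival genes Bcl2, Bcl2l1, Mcl1, Bcl2a1a, Bcl2a1b and Bcl2a1d, the effectors Bax and Bak1, and the BH3-only genes Bcl2l11 and Bbc3. All 10 symbols were among the 32285 genes counted, and all 10 passed the filter on low counts in microglia. Droplet libraries were made from 2 PRMT1FL mice, which carried floxed Prmt1 and are called wild type in the sample labels, and from 2 PRMT1Cx3cr1-KO mice, in which the same floxed gene was recombined by Cx3cr1-CreERT after tamoxifen. By the study's methods the PRMT1FL mice received tamoxifen as well. All 4 mice had eaten 0.2% cuprizone (CPZ), a copper chelator that strips myelin, for 5 wk. CD45+CD11b+ cells were then sorted from the brains, which the labels call quiescent microglia. The labels place the age of 5 to 6 wk at the diet, whereas the methods place it at the tamoxifen injections, before the diet. Cx3cr1 also drives recombination in other brain macrophages, and each mouse gave 1 library. Since each genotype had 2 mice, an exact permutation test of a single value cannot reach 0.05, and tests rest on models fitted across all genes.

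Survival members of the family (BCL2, BCL-xL, MCL1 and A1) hold BAX and BAK in check on the outer mitochondrial membrane. When BH3-only members such as BIM (Bcl2l11) and PUMA (Bbc3) occupy the survival members or engage BAX and BAK directly, the effectors assemble into pores, cytochrome c escapes and caspases are activated. In microglia, signalling through the CSF1 receptor sustains survival, and A1 is known as an NF-kappaB target of activated myeloid cells. Many of these proteins are regulated after transcription, MCL1 by rapid degradation and BIM by phosphorylation, which counts of RNA do not show.

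Mouse A1 is encoded by near-identical copies on chromosome 9, and their sequences are given because they limit what a count for each copy can mean. Bcl2a1a lies at chr9:88956900-88962419 on the + strand, Bcl2a1b at chr9:89199209-89207827 on the + strand and Bcl2a1d at chr9:88723285-88731914 on the - strand of GRCm38 (mm10) in GENCODE M21. The coding sequences were each 519 bases long and differed at 12 positions. The 200 bases that end at coding base 500, a stretch that crosses from exon 1 into exon 2 of 2 and lies toward the 3′ end that the assay reads, held 5 of these positions, printed in capitals.
Bcl2a1a: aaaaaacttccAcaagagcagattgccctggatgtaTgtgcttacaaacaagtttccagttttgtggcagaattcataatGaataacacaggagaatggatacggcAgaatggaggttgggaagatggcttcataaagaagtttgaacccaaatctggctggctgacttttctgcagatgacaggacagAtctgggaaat
Bcl2a1b: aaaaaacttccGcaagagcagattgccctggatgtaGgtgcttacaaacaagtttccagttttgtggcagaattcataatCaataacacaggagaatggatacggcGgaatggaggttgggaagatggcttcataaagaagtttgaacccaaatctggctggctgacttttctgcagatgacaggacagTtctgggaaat
Bcl2a1d: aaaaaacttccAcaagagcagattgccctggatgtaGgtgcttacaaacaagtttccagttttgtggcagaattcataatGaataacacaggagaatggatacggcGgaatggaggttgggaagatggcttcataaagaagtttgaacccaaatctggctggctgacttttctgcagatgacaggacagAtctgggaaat
The stretches span chr9:88957351-88962251, chr9:89199660-89207661 and chr9:88723453-88731419, intron included. Whole transcripts were 98.2% identical between Bcl2a1a and Bcl2a1b, 98.8% between Bcl2a1a and Bcl2a1d and 99.1% between Bcl2a1b and Bcl2a1d over the aligned bases. Of all windows of 100 bases in the annotated transcript, 43.5% for Bcl2a1a, 31.1% for Bcl2a1b and 54.7% for Bcl2a1d also occurred unaltered in another copy. In the last 400 bases, nearest the end that is read, the shares were 24.6%, 28.6% and 53.2%. A read inside such a window cannot be assigned by its sequence, and Cell Ranger counts a read only where it maps to 1 gene. The counts of single copies are therefore uncertain, and the sum of the 3 copies is given beside the main comparisons. By that rule reads shared by copies would be missing from the sum as well, so it may be an undercount.

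The copies also shared their upstream sequence. The 150 bases before the first annotated base of each gene, read from RefSeq's promoter table (GRCm38.p6), are shown with an AP-1 motif (TGANTCA) and a PU.1-type motif (GAGGAAGT) in capitals.
Bcl2a1a, chr9:88956750-88956899, + strand: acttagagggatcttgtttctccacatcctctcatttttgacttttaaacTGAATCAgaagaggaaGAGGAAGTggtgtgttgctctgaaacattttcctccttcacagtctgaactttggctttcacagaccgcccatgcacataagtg
Bcl2a1b, chr9:89199059-89199208, + strand: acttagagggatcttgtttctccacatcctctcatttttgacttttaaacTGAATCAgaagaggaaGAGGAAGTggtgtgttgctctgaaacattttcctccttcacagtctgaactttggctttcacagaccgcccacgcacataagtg
Bcl2a1d, chr9:88731915-88732064, - strand: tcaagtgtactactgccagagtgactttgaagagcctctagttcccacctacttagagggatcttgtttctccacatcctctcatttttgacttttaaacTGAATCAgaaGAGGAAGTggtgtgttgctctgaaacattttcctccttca
Bcl2a1a and Bcl2a1b were identical at 149 of 150 bases. Bcl2a1d, whose annotated start lies farther upstream, was identical to both over 100 aligned bases, gaps not counted, and lacks a short run of bases between the motifs. Searched on both strands in the 150 bases before the RefSeq start of 32851 genes, the AP-1 motif was found in 4.24% and the PU.1-type motif in 1.63%. In that RefSeq window, which ends at another base than the printed one, the PU.1-type motif was in all 3 copies, whereas the AP-1 motif was in Bcl2a1a and Bcl2a1d and not in Bcl2a1b. A TATA-type motif (TATAAA) and the NF-kappaB motif were also searched, held by 7.57% and 2.38% of these stretches, and neither letter pattern occurred in the printed windows.

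The remaining members are single genes. Bcl2 lies at chr1:106538178-106714274 and Bcl2l1 at chr2:152780668-152831728, both on the - strand, and Mcl1 at chr3:95658788-95663176 on the + strand. Bax at chr7:45461697-45466898 and Bak1 at chr17:27019810-27029009 lie on the - strand, whereas Bcl2l11 at chr2:128126038-128162547 and Bbc3 at chr7:16308393-16318205 lie on the + strand. Genes counted on the opposite strand overlap Bcl2 (D630008O14Rik), Bcl2a1d (Gm10634) and Bak1 (Ggnbp1), and how strand entered the deposited counts was not stated.

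The 4 libraries held 8170 to 11427 cells after filtering, 40869 in all, and 31 to 46 cell barcodes were shared by any pair of libraries. Microglial clusters held 39591 cells, 95.5 to 98.2% of each library, with 72770445 to 93293180 unique molecular identifiers (UMIs) per mouse and a median of 6233 to 7065.5 UMIs per cell. All 8 microglial markers were detected in these cells and together took 16516 to 18745 CPM (counts of UMIs scaled to a common library sum). Prmt1, the recombined gene, stood at 90.8 and 83.9 CPM in PRMT1FL and at 70.3 and 70.7 CPM in PRMT1Cx3cr1-KO microglia, a log2 fold change of -0.38 (SE 0.07, edgeR adjusted p = 0.0731). The counts do not separate intact from recombined transcripts. Haemoglobin genes stood apart between the genotypes, with 242 and 94.3 CPM in PRMT1FL and 0.0613 and 0.0214 CPM in PRMT1Cx3cr1-KO microglia over the 5 red cell markers, and neutrophil-like cells numbered 26 and 48 against 0 and 1.

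Of the survival genes, Bcl2a1b and Mcl1 were read in most microglia. Over the 4 mice 83.2% of microglia held at least 1 Bcl2a1b UMI (95% exact interval 82.8 to 83.6%) and 75% held an Mcl1 UMI (74.6 to 75.4%), at a median of 6607 UMIs per cell. The shares were 38.2% for Bcl2a1a, 37.6% for Bcl2a1d, 36.6% for Bcl2l1 and 18.4% for Bcl2. Astrocyte- or oligodendrocyte-like cells, which should lack Bcl2a1b, held it in 12.5% (9.68 to 15.8%) at a median of 2650 UMIs. With each cell thinned to 1000 UMIs the Bcl2a1b shares were 41.8% of 38017 microglia and 5.31% of 433 astrocyte- or oligodendrocyte-like cells, and those of Mcl1 were 31.2% and 12.7%. Intervals cover counting error only.

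At the same thinned depth Bax was found in 15.6% of microglia and in 11.8% of the astrocyte- or oligodendrocyte-like cells. Bcl2l11 stood at 2.5% against 1.39%, Bbc3 at 2.4% against 1.39% and Bak1 at 4.18% against 2.54%. Bcl2 and Bcl2l1 had lower shares in microglia, 2.96% against 9.01% and 6.8% against 9.24%, at or below the share in the other cells. These are small shares, so the levels below rest on UMIs summed over many cells of each mouse.

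The first question was whether loss of PRMT1 altered these genes in microglia as a whole. No member passed the threshold of an adjusted p of 0.05 in edgeR's quasi-likelihood test over 13833 genes, of which 0.867% did. At an unadjusted p below 0.05 the test found 2 members, Bax and Bak1, where 19.9% of all genes tested lay below it. DESeq2 also called 0 members. In 5 of the 10 genes both PRMT1Cx3cr1-KO mice lay above both PRMT1FL mice, and in 0 both lay below, against 38.9% and 17.3% of all genes. The median log2 fold change was 0.07 for the members and -0.005 for all genes. Scaling by library sums instead of TMM moved the median of all genes to 0.071, turned Bcl2a1a from -0.01 to 0.06 and brought Bcl2l1 to 0.00.

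**Figure D1:**
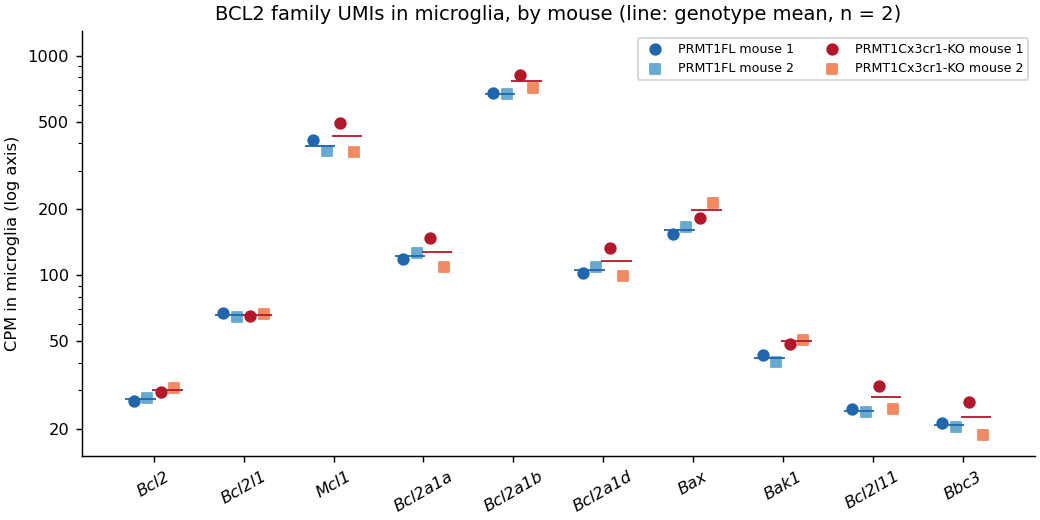
CPM (UMIs scaled by the library sum, log axis) of the 10 members in microglia, 1 point per mouse, with PRMT1FL in blue shades, PRMT1Cx3cr1-KO in red and orange and a line at each genotype mean (n = 2). The 2 PRMT1Cx3cr1-KO mice lie apart for Mcl1 (498 and 366), and both lie above the PRMT1FL mice for Bax.

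Mcl1, whose short-lived protein is needed by many myeloid cells, was read at 414 and 368 CPM in PRMT1FL mice and at 498 and 366 CPM in PRMT1Cx3cr1-KO mice. The PRMT1Cx3cr1-KO mice were the highest and the lowest of the 4, so the genotypes overlapped. The log2 fold change was 0.07 (SE 0.16, edgeR adjusted p = 0.84).

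Bcl2a1b was read at 677 and 674 CPM in PRMT1FL mice and at 823 and 718 CPM in PRMT1Cx3cr1-KO mice. Both PRMT1Cx3cr1-KO values were higher, with a log2 fold change of 0.12 (SE 0.10, edgeR adjusted p = 0.54). Bcl2a1a gave 119 and 127 CPM against 148 and 109 CPM. Bcl2a1d followed the same order of mice, with 103 and 109 CPM against 134 and 99.8 CPM. The 3 copies together amounted to 900 and 910 CPM in PRMT1FL and to 1110 and 927 CPM in PRMT1Cx3cr1-KO mice. This sum had a log2 fold change of 0.09 (SE 0.11, edgeR adjusted p = 0.673). PRMT1Cx3cr1-KO mouse 1 was the highest of the 4 for every copy.

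Bcl2 and Bcl2l1 varied little between mice. Bcl2 gave 26.9 and 27.7 CPM in PRMT1FL and 29.4 and 30.6 CPM in PRMT1Cx3cr1-KO mice. Bcl2l1, which encodes BCL-xL, gave 67.4 and 64.9 CPM against 65.5 and 66.6 CPM. Their log2 fold changes were 0.06 (SE 0.06) and -0.08 (SE 0.06), with edgeR adjusted p of 0.612 and 0.531.

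Bax, the cytosolic pore former, gave 155 and 167 CPM in PRMT1FL and 182 and 214 CPM in PRMT1Cx3cr1-KO mice. Bak1, its membrane-resident counterpart, gave 43.3 and 40.5 CPM against 48.9 and 51 CPM. Neither gene's genotypes overlapped, and the log2 fold changes were 0.22 (SE 0.08, edgeR adjusted p = 0.219) for Bax and 0.18 (SE 0.07, edgeR adjusted p = 0.21) for Bak1. When each state had equal weight, limma's voom gave Bax 0.29 (SE 0.05, adjusted p = 0.000181) and Bcl2a1b 0.19 (SE 0.04, adjusted p = 0.00257), the only members called in that fit. It used several state sums from each mouse, with the mouse as a random block. Its SE and p therefore do not measure the spread between mice alone. That fit also called many more genes over the whole table than the main one, as given at the end.

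The BH3-only genes were highest in PRMT1Cx3cr1-KO mouse 1. Bcl2l11 gave 24.5 and 23.8 CPM in PRMT1FL and 31.2 and 24.5 CPM in PRMT1Cx3cr1-KO mice (log2 fold change 0.13, SE 0.13, edgeR adjusted p = 0.606), so mouse 2 hardly stood above the higher PRMT1FL mouse. Bbc3, a p53 target, gave 21.2 and 20.4 CPM against 26.6 and 18.7 CPM (0.05, SE 0.17, edgeR adjusted p = 0.904). The other PRMT1Cx3cr1-KO mouse was the lowest of the 4 for Bbc3. Several fold changes depended on which of these mice was kept, and such fits leave 1 mouse in the genotype. Without PRMT1Cx3cr1-KO mouse 1 the log2 fold change was -0.28 for Bcl2a1a, 0.32 for Bax, -0.25 for Bbc3 and -0.19 for Mcl1. Without PRMT1Cx3cr1-KO mouse 2 it was 0.30 for Mcl1, 0.29 for Bcl2a1d, 0.32 for Bcl2l11 and 0.30 for Bbc3. Bbc3 and Mcl1 thus turned direction with the mouse left out. The dissociation-response list held 18 genes, among them immediate-early and heat-shock genes and the chemokines Ccl3 and Ccl4. It was likewise highest in mouse 1, at 17109 CPM, and lowest in mouse 2, at 12935 CPM, against 15220 and 14956 CPM in PRMT1FL mice. Its part in these values was not tested.

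In 7 further lists of the pathway 0 genes were called by edgeR. Among other BCL2 family genes 14 of 18 were tested, of which 2 higher and 1 lower lay below an unadjusted p of 0.05, against 19.9% of all genes. The largest non-overlapping changes were those of Bcl2l14 (log2 fold change -0.83, SE 0.35, at only 0.225 to 0.568 CPM), the mitophagy receptor Bnip3 (-0.46) and the BH3-only gene Bik (0.41). In the p53 list, 13 of 14 were tested. Both PRMT1Cx3cr1-KO mice were above both PRMT1FL mice for 8, against 38.9% of all genes. An unadjusted p below 0.05 was found for 4, against 19.9% of all genes. Phlda3 (1.12), Perp (0.50) and Gtse1 (0.46) were farthest apart. Death receptor genes were led by Fas (0.53), Tnfrsf10b (0.48, SE 0.29) and Traf1 (0.32, SE 0.29) among 12 tested. Tnfrsf10b was read at 0.261 to 0.493 CPM and Traf1 at 0.508 to 0.858 CPM, both low levels. Of the 12, 6 were higher and 1 lower in both PRMT1Cx3cr1-KO mice, against 38.9% and 17.3% of all genes.

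The 14 genes of the apoptosome and caspases had a median log2 fold change of 0.09, with Endog, a mitochondrial nuclease, at 0.21. The 7 inhibitor of apoptosis genes had a median of 0.00, with Naip2 at 0.17, Naip6 at 0.16 and Xiap at 0.10. Among 14 regulators of BIM and MCL1, Csf1r (-0.29) and Stat5b (-0.21) were lower and Dynll2 (0.17) higher in both PRMT1Cx3cr1-KO mice. The 11 outer membrane channels and sensors were led by Tspo (0.20), Vdac3 (0.09) and Opa1 (0.07). In the dissociation-response list 0 of 18 were called, and Hspa1b (-0.70), Btg2 (-0.40) and Dusp1 (0.32) were farthest apart.

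The members also varied between microglial states. Clustering left out the members and the genes of the pathway and dissociation-response lists, but not the cell type markers as a group, and gave 8 microglial states. Marker lists named 4 of these. After the study's clusters, these were A1-like (proliferating, 7 of 7 markers over 2-fold) and D/E-like (3 of 4 D and 4 of 4 E markers). B1-like (7 of 7) also took its name from a study cluster. Some genes of the A1 and B1 lists are not named in the study's text. Interferon-responsive-like (10 of 10) was named by a list of interferon-stimulated genes chosen here. Of the C1/C2 markers, 4 of 13 were over 2-fold in that state and 4 of 13 in the Il12b/Cxcl2 cluster. The other 4 kept the names of leading genes: the Baiap2l2/Lgi2, Ube2c/Pbk, Il12b/Cxcl2 and Hspa1b/Klf2 clusters. In the Ube2c/Pbk cluster haemoglobin genes and Ttr, transcripts of other cell types, ranked ahead of Ube2c. The red cell markers there stood at 1804 and 919 CPM in PRMT1FL mice and at 0 CPM in both PRMT1Cx3cr1-KO mice. Of the A1 (proliferating) markers, 4 of 7 were over 2-fold in this cluster as well. Because the states were cut from the same cells, levels between them are described, with no test. Each value is the log2 ratio of CPM in the state to CPM in all other microglia, taken inside each mouse (mean ± SD, n = 4 mice). B1-like cells numbered 19 and 9 in PRMT1FL mice, so their ratios rest on few UMIs and are not described further.

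**Figure D2:**
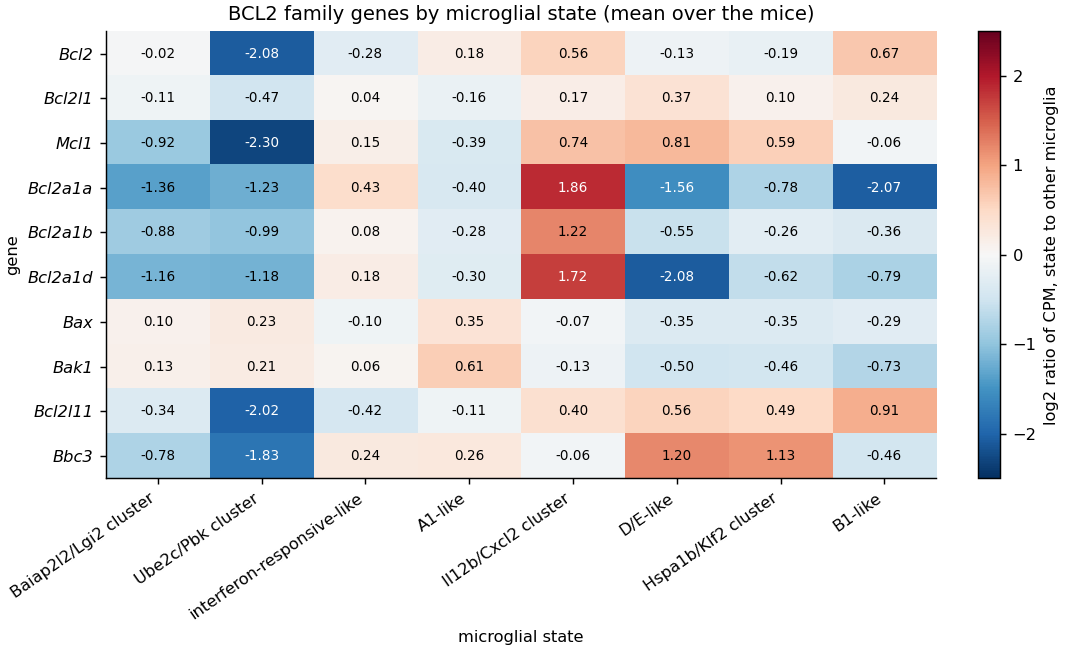
Mean log2 ratio of CPM in each microglial state (columns) to CPM in the other microglia for the 10 members (rows), over 4 mice, or 2 to 4 in B1-like cells. The Bcl2a1 copies are high in the Il12b/Cxcl2 cluster, and Bcl2, Mcl1, Bcl2l11 and Bbc3 are low in the Ube2c/Pbk cluster.

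The Bcl2a1 copies marked the Il12b/Cxcl2 cluster, which was led by Il12b, Tnfsf9, Cxcl2, Ptgs2 and other inflammatory genes. Summed, the copies amounted to 1538 and 1589 CPM there in PRMT1FL and to 1678 and 1722 CPM in PRMT1Cx3cr1-KO mice, 1.36 ± 0.09 above other microglia. All 3 copies were high in all 4 mice, with Bcl2a1a at 1.86 ± 0.09, Bcl2a1b at 1.22 ± 0.09 and Bcl2a1d at 1.72 ± 0.14. The dissociation-response list was also high in this cluster, at 21551 to 23274 CPM, and its part in the levels of the copies was not tested. The next state was interferon-responsive-like, with 940 to 1166 CPM of the sum, and its range did not touch that of the Il12b/Cxcl2 cluster. At the low end the Ube2c/Pbk cluster had 456 to 523 CPM, below the Baiap2l2/Lgi2 cluster (542 to 621 CPM) in all 4 mice. In PRMT1FL mice D/E-like cells were lower still, at 426 and 453 CPM against 456 and 492 CPM in the Ube2c/Pbk cluster. In PRMT1Cx3cr1-KO mice D/E-like cells stood at 786 and 705 CPM.

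**Figure D3:**
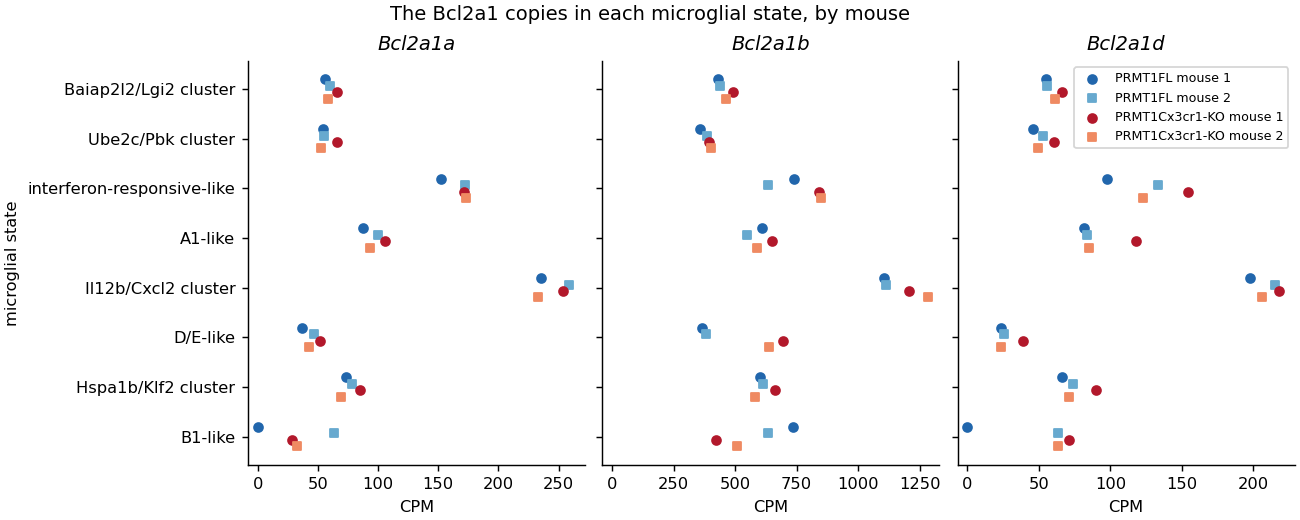
CPM of Bcl2a1a, Bcl2a1b and Bcl2a1d (horizontal axes) in each microglial state, 1 point per mouse. All 4 mice are highest in the Il12b/Cxcl2 cluster for each copy, and in D/E-like cells the genotypes separate for Bcl2a1b.

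The copies did not keep the same proportions in every state. In D/E-like cells Bcl2a1d was the lowest of any state, at 23.8, 25.5, 38.8 and 23.4 CPM and a ratio of -2.08 ± 0.15, and Bcl2a1a stood at -1.56 ± 0.13. Bcl2a1b was lower there by a smaller ratio, -0.55 ± 0.38, with the widest SD of the copies. Its ratios were -0.92 and -0.85 in PRMT1FL and -0.26 and -0.18 in PRMT1Cx3cr1-KO mice. Over 28 points (7 states in 4 mice) the log2 levels of the copies correlated at r = 0.96 for Bcl2a1a and Bcl2a1d, 0.88 for Bcl2a1a and Bcl2a1b and 0.81 for Bcl2a1b and Bcl2a1d. These points share libraries and depth, and by Cell Ranger's rule reads shared by copies would enter neither count. The correlations are therefore descriptions only. Among 7388 genes the sum followed Tlr2 (r = 0.91), Phlda1 (0.89), Ccl3 (0.87), Ptgs2 (0.86) and Cxcl2 (0.85) most closely, of which Ccl3 belongs to the dissociation-response list.

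Mcl1 was low in the Ube2c/Pbk cluster, with 86.2 and 81.2 CPM in PRMT1FL and 102 and 94.6 CPM in PRMT1Cx3cr1-KO mice, a ratio of -2.30 ± 0.14. It was also low in the Baiap2l2/Lgi2 cluster (220 to 284 CPM, -0.92 ± 0.07), whose range lay wholly above that of the Ube2c/Pbk cluster. At the top were D/E-like cells (491 to 934 CPM, 0.81 ± 0.33), the Hspa1b/Klf2 cluster (531 to 662 CPM, 0.59 ± 0.08) and the Il12b/Cxcl2 cluster (528 to 613 CPM, 0.74 ± 0.13), whose ranges overlapped. Cell depth also differed between states, from a median of 2964 UMIs in D/E-like to 13100 in A1-like cells. Thinning every cell to 1000 UMIs gave Mcl1 a ratio of -2.52 in the Ube2c/Pbk cluster. Over the members and the summed copies, this thinning moved 48 of 88 levels by more than their SD.

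The 5 genes most like Mcl1 over the 28 points were Fos (r = 0.99), Ppp1r15a (0.98), Junb (0.98), Zfand5 (0.98) and Atf3 (0.98), of which Fos, Junb and Atf3 belong to the dissociation-response list. That list's summed level was 1643 to 1776 CPM in the Ube2c/Pbk cluster and 6991 to 7585 in the Baiap2l2/Lgi2 cluster. It was 9481 to 12099 in A1-like and 16716 to 19460 in interferon-responsive-like cells. The highest levels were 21551 to 23274 in the Il12b/Cxcl2 cluster, 20690 to 25716 in the Hspa1b/Klf2 cluster and 23469 to 34421 in D/E-like cells. This order was close to that of Mcl1. The part of the dissociation-response list in the levels of Mcl1 was not tested.

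The BH3-only genes shared the lowest state of Mcl1 and were high in D/E-like cells and the Hspa1b/Klf2 cluster. Bbc3 was highest in D/E-like cells (43, 44.9, 57.1 and 40.8 CPM, 1.20 ± 0.09) and in the Hspa1b/Klf2 cluster (32.8 to 46.3 CPM, 1.13 ± 0.28), and lowest in the Ube2c/Pbk cluster (6.17 to 6.86 CPM, -1.83 ± 0.18). Bcl2l11 stood at 0.56 ± 0.20 in D/E-like cells and at 0.49 ± 0.10 in the Hspa1b/Klf2 cluster, against -2.02 ± 0.32 in the Ube2c/Pbk cluster, where it was read at 4.99 to 7.84 CPM. The order departed from that of Mcl1 in the Il12b/Cxcl2 cluster, where Bbc3 stood at -0.06 ± 0.16 and Bcl2l11 at 0.40 ± 0.14, and in interferon-responsive-like cells, where Bcl2l11 stood at -0.42 ± 0.31. The levels of Bcl2l11 and Bbc3 correlated with those of Mcl1 at r = 0.92 and 0.91 over the 28 points. The genes most like Bcl2l11 were Dennd4a (r = 0.97), Gramd1a (0.97), Ggnbp2 (0.96), Kansl1l (0.96) and Mef2d (0.96).

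Bcl2 and Bcl2l1 were spread over a narrower range, apart from 1 state. Bcl2 was read at 5.61, 5.9, 8.11 and 10.9 CPM in the Ube2c/Pbk cluster, -2.08 ± 0.37, and at 20 CPM or more in every other state and mouse. It was highest, among states with enough cells, in the Il12b/Cxcl2 cluster (34 to 39 CPM, 0.56 ± 0.16). Bcl2l1 ran from 45.9 to 52 CPM in the Ube2c/Pbk cluster (-0.47 ± 0.06) to 68.1 to 100 CPM in D/E-like cells (0.37 ± 0.27). Its D/E-like ratios were 0.23 and 0.07 in PRMT1FL and 0.53 and 0.65 in PRMT1Cx3cr1-KO mice. In PRMT1FL mouse 2 it was higher in the Il12b/Cxcl2 cluster (72.5 CPM) than in D/E-like cells (68.1 CPM).

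The effectors had a different order, and over the 28 points Bax correlated with Mcl1 at r = -0.50. Bak1 was highest in the proliferating A1-like cells, at 66 and 68.2 CPM in PRMT1FL and 64 and 72.2 CPM in PRMT1Cx3cr1-KO mice (0.61 ± 0.16), a range above that of every other state with enough cells. Bax was also highest there (206 to 247 CPM, 0.35 ± 0.09), followed by the Ube2c/Pbk cluster (170 to 238 CPM, 0.23 ± 0.10), whose range overlapped. Both were low in D/E-like cells and in the Hspa1b/Klf2 cluster, where Bax stood at -0.35 ± 0.23 and -0.35 ± 0.08 and Bak1 at -0.50 ± 0.09 and -0.46 ± 0.05. The D/E-like ratios of Bax were -0.55 and -0.55 in PRMT1FL and -0.12 and -0.17 in PRMT1Cx3cr1-KO mice. A1-like cells had the most marked doublets, 18.8% of the state. With marked doublets removed, 84 of 88 ratios moved by less than their SD.

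Genotypes were next compared inside each state with at least 20 cells in every mouse, which left 7 states and 70 member tests. In edgeR 4 tests passed an adjusted p of 0.05, all in D/E-like cells: Bcl2l1, Mcl1, Bcl2a1b and Bax were higher in PRMT1Cx3cr1-KO mice. D/E-like cells were the state with the most calls over all genes, 25.6% of 10718 (13.5% higher in PRMT1Cx3cr1-KO mice). With either PRMT1Cx3cr1-KO mouse left out, which leaves 1 mouse of that genotype, the number of tests that passed changed. The share of genes called was 1.47% in the Baiap2l2/Lgi2 cluster, 3.28% in the Ube2c/Pbk cluster, 0.376% in interferon-responsive-like cells, 0.285% in A1-like cells, 2.34% in the Il12b/Cxcl2 cluster and 0.908% in the Hspa1b/Klf2 cluster, with 0 members in each.

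**Figure D4:**
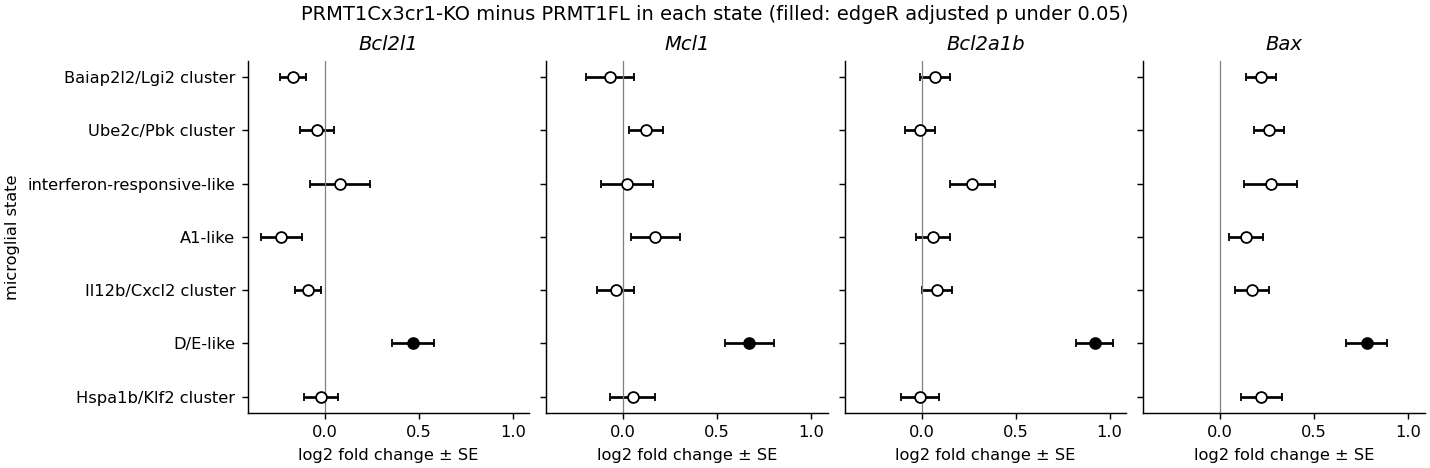
Log2 fold change (PRMT1Cx3cr1-KO minus PRMT1FL, ± SE, 2 mice per genotype) of Bcl2l1, Mcl1, Bcl2a1b and Bax in the 7 microglial states tested. Filled points passed an edgeR adjusted p of 0.05, and they lie in D/E-like cells, at 0.47, 0.67, 0.92 and 0.78.

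The makeup of D/E-like cells differed between the genotypes, as described below, so these values compare pooled cells that are not alike. Bcl2a1b gave 365 and 381 CPM there in PRMT1FL mice and 695 and 639 CPM in PRMT1Cx3cr1-KO mice. Its log2 fold change was 0.92 (SE 0.10, edgeR adjusted p = 4.31e-06). These sums held 1164 to 4636 UMIs of the gene per mouse. Bcl2a1a (36.8 and 46.5 CPM against 52 and 42.2 CPM) and Bcl2a1d (23.8 and 25.5 CPM against 38.8 and 23.4 CPM) overlapped between the genotypes and were not called. Summed, the copies gave 426 and 453 CPM against 786 and 705 CPM (0.84, SE 0.11, edgeR adjusted p = 1.57e-05), a fit added after the data were seen.

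In D/E-like cells Mcl1 gave 629 and 491 CPM in PRMT1FL and 934 and 750 CPM in PRMT1Cx3cr1-KO mice. Its log2 fold change was 0.67 (SE 0.13, edgeR adjusted p = 0.000942). Bcl2l1 gave 78.3 and 68.1 CPM against 91.9 and 100 CPM (0.47, SE 0.11, edgeR adjusted p = 0.00414). Without PRMT1FL mouse 2 the Bcl2l1 value was 0.40 and was no longer called (edgeR adjusted p = 0.0772).

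Bax, a promoter of death, was also higher in the pooled D/E-like cells of PRMT1Cx3cr1-KO mice. It gave 107 and 115 CPM in PRMT1FL and 168 and 192 CPM in PRMT1Cx3cr1-KO mice. The log2 fold change was 0.78 (SE 0.11, edgeR adjusted p = 3.77e-05). For Bak1 the values were 33.1 and 27.5 CPM against 36.1 and 35.2 CPM (0.31, SE 0.14, edgeR adjusted p = 0.127). Bcl2l11 (0.20, SE 0.13) and Bbc3 (0.22, SE 0.16) were not called, with edgeR adjusted p of 0.291 and 0.323. In 7 of the 10 members both PRMT1Cx3cr1-KO mice lay above both PRMT1FL mice, against 24.8% of all genes tested in these cells. Library sums without TMM scaling kept the 4 calls, at 0.39 for Bcl2l1, 0.59 for Mcl1, 0.84 for Bcl2a1b and 0.70 for Bax, while genes called over the whole table went from 1451 higher and 1288 lower to 1146 higher and 1685 lower.

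Whether the effect in D/E-like cells differed from that in the other states was tested as a difference with limma's voom, over 70 member contrasts. The same 4 members were called, all in D/E-like cells, where 21.4% of 12269 genes were. The effect of Bcl2a1b was 0.91 there and 0.07 on average in the other states, a difference of 0.84 (SE 0.08, limma adjusted p = 2.58e-08). Mcl1 differed by 0.63 (SE 0.12, limma adjusted p = 0.000413), Bax by 0.57 (SE 0.10, limma adjusted p = 0.00013) and Bcl2l1 by 0.55 (SE 0.09, limma adjusted p = 5.19e-05). This fit also used several state sums from each mouse, with the mouse as a random block. Its SE and p thus do not measure the spread between mice alone. The shares of genes called in the remaining contrasts were 0.424% for the Baiap2l2/Lgi2 cluster, 0.163% for the Ube2c/Pbk cluster, 0.00815% for interferon-responsive-like cells, 0.75% for A1-like cells, 1.13% for the Il12b/Cxcl2 cluster and 0% for the Hspa1b/Klf2 cluster.

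D/E-like cells were not made up alike in the genotypes. At the higher clustering resolution most of these cells fell into a group led by Mmp12, Gpnmb, Tnfsf9 and Gadd45b (1231 cells) and a group led by Hspa1b and Siglech (4162 cells). The Mmp12/Gpnmb group made up 10.2 and 7.83% of D/E-like cells in PRMT1FL and 34.1 and 27.4% in PRMT1Cx3cr1-KO mice. Each group was therefore fitted alone, a comparison chosen after the data were seen.

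In the Hspa1b/Siglech group, where 17.4% of genes were called, all 4 members were again higher. The log2 fold changes were 0.42 for Bcl2a1b (SE 0.10, edgeR adjusted p = 0.00475), 0.35 for Mcl1 (SE 0.12, edgeR adjusted p = 0.0357), 0.41 for Bcl2l1 (SE 0.12, edgeR adjusted p = 0.021) and 0.64 for Bax (SE 0.12, edgeR adjusted p = 0.000335). Bcl2a1a was lower, at 24.4 and 22.3 CPM against 31.7 and 35.5 CPM (-0.54, SE 0.18, edgeR adjusted p = 0.0397), the opposite direction to Bcl2a1b. The sum of the copies was 327 and 330 CPM against 419 and 410 CPM (0.34, SE 0.10, edgeR adjusted p = 0.0241). In the Mmp12/Gpnmb group, with 116 and 74 cells in PRMT1FL mice and 7.37% of genes called, Bax was the only member called (0.75, SE 0.17, edgeR adjusted p = 0.0184), and the summed copies were not (0.24, SE 0.13, edgeR adjusted p = 0.293).

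Mcl1 gave 1130 and 838 CPM against 1190 and 966 CPM in the Mmp12/Gpnmb group, so the genotypes overlapped (0.14, SE 0.16, edgeR adjusted p = 0.667). With the group as a term in limma's voom, 21.3% of 10462 genes were called. Bax kept its size there (0.68, SE 0.10, limma adjusted p = 7.59e-05), Bcl2l1 stood at 0.43 (SE 0.11, limma adjusted p = 0.01) and Bcl2a1b at 0.38 (SE 0.07, limma adjusted p = 0.000504). Mcl1 fell short of the threshold in that fit (0.27, SE 0.10, limma adjusted p = 0.0574). It used the sums of both groups from each mouse, so SE and p do not measure the spread between mice alone. Over all D/E-like cells the log2 fold changes of Mcl1 and Bcl2a1b, 0.67 and 0.92, were thus larger than with the group held fixed.

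**Figure D5:**
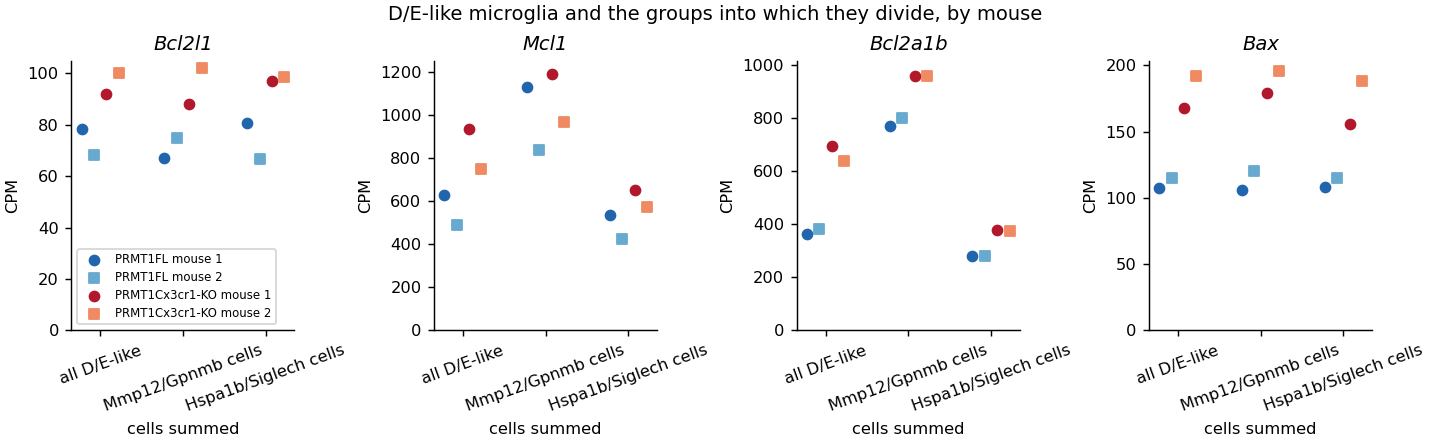
CPM (vertical axes, from 0) of Bcl2l1, Mcl1, Bcl2a1b and Bax in all D/E-like microglia and in the 2 groups into which most of them divide, 1 point per mouse. Mcl1 and Bcl2a1b are higher in the Mmp12/Gpnmb cells of every mouse than in its Hspa1b/Siglech cells. Bcl2l1, Bcl2a1b and Bax separate the genotypes in both groups, and Mcl1 only in the Hspa1b/Siglech cells.

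Other genes of D/E-like cells, named after their values were seen, moved with the genotype. In the p53 list 5 of 12 genes tested were higher and 0 lower in PRMT1Cx3cr1-KO mice, where 13.5% of all genes tested were higher. Of these, Phlda3 (0.619 and 0.982 CPM) and Perp (1.24 and 0.655 CPM) lay near the floor of the counts in PRMT1FL mice. Among the 5 was Cdkn1a, which halts the cell cycle, at 107 and 84.5 CPM against 350 and 313 CPM (log2 fold change 1.87, SE 0.12, edgeR adjusted p = 6.05e-09). Trib3, a stress-induced pseudokinase, went from 0.31 and 0.327 CPM to 12.1 and 15.6 CPM (edgeR adjusted p = 4.27e-07). The PRMT1FL values lie near the floor of the counts, so the size of this change is uncertain. Over all microglia Trib3 overlapped between the genotypes, at 4.7 and 3.96 CPM in PRMT1FL against 4.89 and 3.39 CPM in PRMT1Cx3cr1-KO mice (log2 fold change -0.14). Csf1r, whose product carries the survival signal of microglia, was lower in PRMT1Cx3cr1-KO mice. It gave 3330 and 3060 CPM in PRMT1FL against 2260 and 2080 CPM (-0.48, SE 0.11, edgeR adjusted p = 0.00403).

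Of the 12 other BCL2 family genes tested in these cells 2 were higher, Bcl2l2 and Bnip3, and 0 lower, against 13.5% of all genes higher. The apoptosome and caspase list had 0 of 14 higher and 1 lower (Dffa), inhibitor of apoptosis genes 1 of 7 higher (Naip2) and 1 lower (Naip5), and death receptor genes 0 of 9 higher and 1 lower (Cyld). Of 14 regulators of BIM and MCL1, Trib3 was the 1 higher and Csf1r the 1 lower, and of 11 outer membrane genes 2 were higher (Tspo and Vdac1) and 0 lower. Median log2 fold changes were 0.35 over the members, 0.36 over the p53 list and 0.00 over all genes tested. They were 0.48 over the dissociation-response list, 0.22 over the outer membrane genes and -0.16 to 0.07 over the other lists.

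Of all 10718 genes tested in D/E-like cells 1451 were higher and 1288 lower. In the dissociation-response list 9 of 18 genes were higher, among these Fos and Ier3, and 3 were lower (Hspa1a, Hspa1b and Btg2). Its summed level there was 27914 and 23657 CPM in PRMT1FL and 34421 and 23469 CPM in PRMT1Cx3cr1-KO mice. The 7 B1 markers summed to 4047 and 3798 CPM in D/E-like cells of PRMT1FL and to 21365 and 29053 CPM in those of PRMT1Cx3cr1-KO mice, and the 8 microglial markers to 28134 and 29072 CPM against 20474 and 19903 CPM. The markers that named the state moved apart: the 4 D markers summed to 5625 and 5801 CPM in PRMT1FL against 2734 and 2220 CPM in PRMT1Cx3cr1-KO mice, and the 4 E markers to 4151 and 4075 CPM against 6801 and 5880 CPM. The pooled state thus had more of the D markers in PRMT1FL and more of the E markers in PRMT1Cx3cr1-KO mice. The paper reports a loss of cluster D and a gain of cluster E in PRMT1Cx3cr1-KO microglia. B2 markers (12431 and 11833 against 19674 and 23410 CPM) and C1/C2 markers (2106 and 2183 against 5327 and 3584 CPM) were also higher in both PRMT1Cx3cr1-KO mice. The F (macrophage or monocyte) markers stood at 23.6 and 23.9 CPM against 5.88 and 12.8 CPM (PRMT1Cx3cr1-KO against PRMT1FL) over 7 genes, with 0 of the 7 at 0 in every mouse. Median depth was 2745 and 3123 UMIs against 2899 and 3282 UMIs per cell. The part of these lists in the changes of the members was not tested.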

How the data were processed

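The deposited files held UMI counts per gene and cell barcode, made by the authors with Cell Ranger 3.1.0 on mm10. Seurat 3.2.0 and Scanpy 1.5.2 are also named in the submitters' processing notes. Libraries were Single Cell 3′ (kit v2) libraries read on a NovaSeq6000. Barcodes were kept here if they had between 200 and 6000 detected genes and no more than 10% of UMIs from mitochondrial genes. Cells were clustered with scanpy 1.11.5 and leidenalg 0.10.2 (Python 3.11.15; 2000 variable genes, 20 components, 15 neighbours, resolution 0.4), leaving out 749 of 14757 genes called between genotypes, the members, the pathway lists and mitochondrial genes. Doublets were marked as the top Scrublet scores at 0.8% per 1000 barcodes, since its automatic threshold marked 0 to 2 cells per library, and were removed only as an alternative.

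Raw counts were summed per mouse and state and tested with edgeR 4.0.16 (quasi-likelihood, TMM, R 4.3.3), with Benjamini-Hochberg adjustment over all genes tested. Effects between states were tested with limma 3.58.1 (voom), and DESeq2 1.42.0 was an alternative. States needed 20 cells in every mouse. Shares used exact Clopper-Pearson intervals (95%). Levels were CPM, and likeness used log2(CPM + 1) over genes with a mean of at least 10 CPM. Sequences were aligned with biopython 1.88. The scripts were tested on simulated data.

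The members and lists were chosen with earlier results of these data known. All members are named. From each other list the named genes are those called in the genotype fit, and otherwise up to 3 with the largest non-overlapping change. Genes named in D/E-like cells fall outside this rule, and some genes that the rule names are not reported here.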

Additional observations from a re-analysis of the deposited data

Results flagged for a closer look

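In D/E-like cells the genotype effect of 4 members differed from its mean over the other microglial states in limma's voom. The difference, on the log2 scale, was 0.84 for Bcl2a1b, 0.63 for Mcl1, 0.57 for Bax and 0.55 for Bcl2l1. The fit used several state sums from each mouse, so its calls do not rest on the spread between mice alone. For all 4 genes the genotypes did not overlap in these cells, with the PRMT1Cx3cr1-KO mice above. That order of mice held for 24.8% of all genes tested in these cells. The 4 genes were called from the same values, so their order is no separate support. Over all genes 21.4% differed in the limma contrast. The makeup of D/E-like cells also moved with the genotype. The Mmp12/Gpnmb group took 10.2 and 7.83% of them in PRMT1FL and 34.1 and 27.4% in PRMT1Cx3cr1-KO mice.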

How the results depend on the processing

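With 2 mice per genotype single mice weighed heavily. A fit with 1 mouse left out has 1 mouse in a genotype, so its counts show only how unstable the calls were. Genes called in microglia, 120 in the reported fit, numbered 706 with DESeq2, 1754 without the filter on low counts, 749 over all cells, 1591 for the mean of within-state changes in limma's voom, and 4 to 2736 with 1 mouse left out. Members called were 0 in the reported fit, 2 for that mean and 0 to 4 with 1 mouse left out. Member tests called within states were 4, 6 at the higher clustering resolution and 3 to 12 with 1 mouse left out. The replicate numbers share only a number (correlation of deviations -0.012), and a replicate block gave 257 genes and 0 members in microglia and 5 member tests within states.

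Fold changes in microglia turned direction for Mcl1 (-0.01 without PRMT1FL mouse 2, -0.19 without PRMT1Cx3cr1-KO mouse 1) and for Bcl2a1a (0.06 without TMM, 0.03 over all cells, 0.03 without PRMT1FL mouse 2, 0.22 without PRMT1Cx3cr1-KO mouse 2, 0.02 for the mean of within-state changes). Without PRMT1Cx3cr1-KO mouse 1 they also turned for Bcl2a1b, Bcl2a1d, Bcl2l11 and Bbc3. With 1 mouse left out the range was -0.19 to 0.30 for Mcl1, -0.28 to 0.22 for Bcl2a1a, -0.01 to 0.24 for Bcl2a1b, -0.18 to 0.29 for Bcl2a1d, -0.07 to 0.32 for Bcl2l11 and -0.25 to 0.30 for Bbc3. In D/E-like cells, in fits chosen after seeing the data except the last, they turned for Bcl2a1a (-0.54 in the Hspa1b/Siglech group, -0.27 with the group as a term), Bcl2a1d (-0.52 in the Mmp12/Gpnmb group, -0.27 with the term), Bcl2l11 (-0.11 in the Hspa1b/Siglech group) and Bbc3 (-0.34 in the Mmp12/Gpnmb group, -0.03 with the term, and -0.03 to 0.47 with 1 mouse left out). Another clustering seed turned 2 levels, the summed Bcl2a1 copies in interferon-responsive-like cells (-0.09) and Bcl2 in the Hspa1b/Klf2 cluster (0.35). Under that seed 8733 cells were taken as the Hspa1b/Klf2 cluster, of which 49.7% belonged to it in the reported clustering. For interferon-responsive-like cells the share was 73.7% of 889. The Hspa1b/Klf2 cluster was thus not kept under that seed, and the part of this in the 2 levels was not tested. Thinning to 1000 UMIs moved 48 of 88 levels by more than their SD. Over all 352 levels recomputed 252 moved by less than their SD and 98 by more. The depth limits Bcl2, Bcl2l11 and Bbc3 most.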
